A study of Mus musculus with 10 samples.

Results

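Small families of muscle proteins that sit where force is borne in the sarcomere were followed here at the level of messenger RNA: the muscle ankyrin repeat genes Ankrd1, Ankrd2 and Ankrd23, the FHL genes Fhl1, Fhl2 and Fhl3, and the CSRP genes Csrp1, Csrp2 and Csrp3. The 9 genes were chosen by name from the 23337 rows of the count table, and 8 of them passed the filter on low counts and stood among the 11870 genes tested. Cardiomyocytes came from mice with floxed Actn2, the gene of alpha-actinin-2, which crosslinks actin filaments at the Z-disc. Knockout animals carried 2 floxed alleles (labelled Actn2-FF) and heterozygotes carried 1 floxed and 1 normal allele (labelled Actn2-F+), with 5 animals per group. Both groups received AAV9-cTNT-Cre, an adeno-associated virus that expresses Cre recombinase from a cardiac troponin T promoter, on postnatal day 1 at 3.6e8 viral genomes per gram. Cells were taken on postnatal day 14 by collagenase perfusion of the heart and fluorescence-activated sorting. The controls therefore also carried virus, Cre and 1 allele open to recombination, and the labels do not say which signal the sort used. Strain is not given in the sources used here.

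Muscle ankyrin repeat proteins bind the spring region of titin in the I-band and also enter the nucleus, and Ankrd1 is known as a gene that is induced in stretched or overloaded heart muscle. FHL proteins are built almost wholly of LIM domains, which are zinc-binding modules that hold other proteins. Fhl1 and Fhl2 bind titin in cardiomyocytes and are linked to MAP kinase and calcineurin signalling. CSRP proteins carry LIM domains too. Csrp3, also called muscle LIM protein, is the striated-muscle member, binds alpha-actinin and telethonin at the Z-disc and is required for normal heart structure, whereas Csrp1 and Csrp2 are best known from smooth muscle and other non-striated cells.

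The promoters of the members that rose, with that of Fhl2 beside them as the abundant member whose groups overlapped, are shown because they are the stretches through which these genes are read. RefSeq windows (build GRCm38.p6, the assembly that mm10 names) run from 250 bases before to 50 bases after an annotated start, 300 bases in all, and were found for 8 of the 9 members in 13 windows, Csrp2 having none in the table. Of the genes shown, Ankrd23, Fhl1, Fhl2 and Csrp3 each have another window, and the one nearest to the counted start is printed. Each is printed from its 5′ end along the gene's own strand. Capitals mark matches, on either strand, to 6 motifs. The M-CAT core, bound by TEAD factors, was searched as CATTCC. The core of NKX2-5 sites was searched as AAGTG. The GATA factor core was searched as AGATAA. The TATA box was searched as TATAAA. The MEF2 site and the CArG box of serum response factor were searched by their usual consensus. The matches shown do not overlap each other.
Ankrd1, chr19:36119795-36120094, minus strand: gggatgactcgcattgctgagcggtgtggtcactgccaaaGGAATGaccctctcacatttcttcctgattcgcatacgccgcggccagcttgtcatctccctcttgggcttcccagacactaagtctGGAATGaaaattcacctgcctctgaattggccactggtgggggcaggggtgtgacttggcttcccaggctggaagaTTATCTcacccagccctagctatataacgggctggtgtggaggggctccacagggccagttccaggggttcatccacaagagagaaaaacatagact
Ankrd23, chr1:36535690-36535989, minus strand: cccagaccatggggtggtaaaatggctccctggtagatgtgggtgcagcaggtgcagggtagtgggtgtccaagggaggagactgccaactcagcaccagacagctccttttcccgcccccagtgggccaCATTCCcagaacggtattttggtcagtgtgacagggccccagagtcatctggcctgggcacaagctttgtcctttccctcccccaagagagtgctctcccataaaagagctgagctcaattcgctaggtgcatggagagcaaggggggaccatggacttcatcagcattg
Fhl1, chrX:56779433-56779732, plus strand: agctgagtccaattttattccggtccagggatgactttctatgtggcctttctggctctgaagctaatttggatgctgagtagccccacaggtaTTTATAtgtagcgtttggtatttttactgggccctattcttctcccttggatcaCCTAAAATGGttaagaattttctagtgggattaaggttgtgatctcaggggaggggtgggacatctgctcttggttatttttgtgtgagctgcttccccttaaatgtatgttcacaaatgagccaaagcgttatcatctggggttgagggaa
Csrp3, chr7:48848002-48848301, minus strand: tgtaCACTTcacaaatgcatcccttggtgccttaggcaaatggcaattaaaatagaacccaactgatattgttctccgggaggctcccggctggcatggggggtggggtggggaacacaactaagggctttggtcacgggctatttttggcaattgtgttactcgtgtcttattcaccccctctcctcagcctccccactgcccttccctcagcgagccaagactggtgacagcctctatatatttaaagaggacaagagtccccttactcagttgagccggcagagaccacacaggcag
Fhl2, chr1:43163912-43164211, minus strand: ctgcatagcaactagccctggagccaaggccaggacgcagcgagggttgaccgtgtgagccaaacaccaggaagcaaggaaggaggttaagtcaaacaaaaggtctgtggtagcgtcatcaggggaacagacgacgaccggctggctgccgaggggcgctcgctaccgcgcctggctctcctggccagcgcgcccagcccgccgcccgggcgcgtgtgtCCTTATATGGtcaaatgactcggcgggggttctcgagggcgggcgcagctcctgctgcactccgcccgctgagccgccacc

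The Ankrd1 window held the M-CAT core at 2 places, -210 to -205 and -123 to -118 counted from the start, and the GATA core at -47 to -42, all on the opposite strand. The Ankrd23 window held 1 M-CAT core, at -120 to -115 on the gene's own strand. Of all 32851 windows in the table, 14.7% held this core and 11.2% held the GATA core. A CArG box stood at -102 to -93 in the Fhl1 window and at -31 to -22 in the Fhl2 window, against 1.63% of all windows. The other Fhl2 window also held a CArG box, at -96 to -87, and the other Fhl1 window held none, but an NKX2-5 core. The other Ankrd23 window held 1 M-CAT, 1 NKX2-5 and 1 GATA core, and the other Csrp3 window held none of the motifs. The Fhl1 window lies 47896 bases into the span that was counted for the gene, at a downstream start. The Csrp3 window held only the NKX2-5 core, at -246 to -242, which 46.4% of windows hold. The MEF2 site was in 0 of the 13 windows and in 0.557% of all. These matches describe letters and not binding, and a CArG box was present both in a gene that rose and in one that did not pass the test.

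Total counts ran from 8086656 to 25237696 per library, and heterozygote 1 was the deepest. Values below are normalised read counts in CPM, in which each count is divided by its TMM-adjusted library total (CPM is the usual scale of read counts relative to library size), and levels of different members are compared only as CPM per kilobase of counted exon. Actn2 itself lay between 1145 and 1286 CPM in the knockouts and between 2677 and 3474 CPM in the heterozygotes (edgeR log2 fold change -1.39, SE 0.0910, adjusted p 3.48e-07). The knockouts thus kept 0.383 of the heterozygote level of Actn2 reads. The labels give the genotype and no level of Actn2. The 10 cardiomyocyte markers together summed to 122000 to 155000 and 118000 to 144000 CPM (1 called higher, 2 lower). The 9 endothelial markers summed to 506 to 788 CPM in the heterozygotes and 325 to 580 CPM in the knockouts, with 2 called lower. All 9 had a log2 fold change below 0, from -0.378 for Kdr to -0.765 for Cldn5. The 7 mural markers summed to 161 to 270 and 197 to 290 CPM, with only Cspg4 called (higher, log2 fold change 1.84), and the 8 fibroblast markers to 297 to 492 and 272 to 594 CPM, with 0 called in edgeR's test. All 7 immune markers averaged under 10 CPM and summed to at most 34.9 CPM in a heterozygote and 10.6 CPM in a knockout, with Csf1r called lower, and the red-cell genes Hbb-b1 and Hba-a1 were at 0 counts. The skeletal-muscle list was made up of Ckm, which heart muscle expresses too (3630 to 5670 and 2030 to 2300 CPM), while its other 5 genes averaged under 10 CPM. Some libraries stood apart. Heterozygote 3 held 682 CPM of 8 interferon-response genes against 27.2 to 44.8 CPM in the other 9 libraries, and knockout 5 held 385 CPM of 5 atrial markers against 5.21 to 85.5 CPM. Leaving out either of them changed the call of no member. In sorted bulk cells, fewer cells of a type and less RNA per cell cannot be told apart.

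Of the 8 tested members, 4 were higher in the knockout and 0 lower at an edgeR adjusted p below 0.05. Of all tested genes 18.9% were called, 10.2% higher and 8.64% lower, so that 54.3% of calls were upward. With scaling by library totals alone, 68.9% of calls were upward, and the same 4 members were called higher. The 4 that rose were Ankrd1, Ankrd23, Fhl1 and Csrp3, at least 1 from each family. In each of these 4 the knockouts lay above all heterozygotes, which was so for 8.41% of tested genes, while no member lay below all heterozygotes, as 6.32% of tested genes did. The median log2 fold change of the tested members was 0.30, against 0.0023 for all tested genes. The edgeR test at a p of 0.05 without adjustment would call no further member, the lowest p among the other 4 being 0.129 for Fhl3. All 9 members lie on stretches whose exons share no base with another gene of the annotation used for counting.

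**Figure D1:**
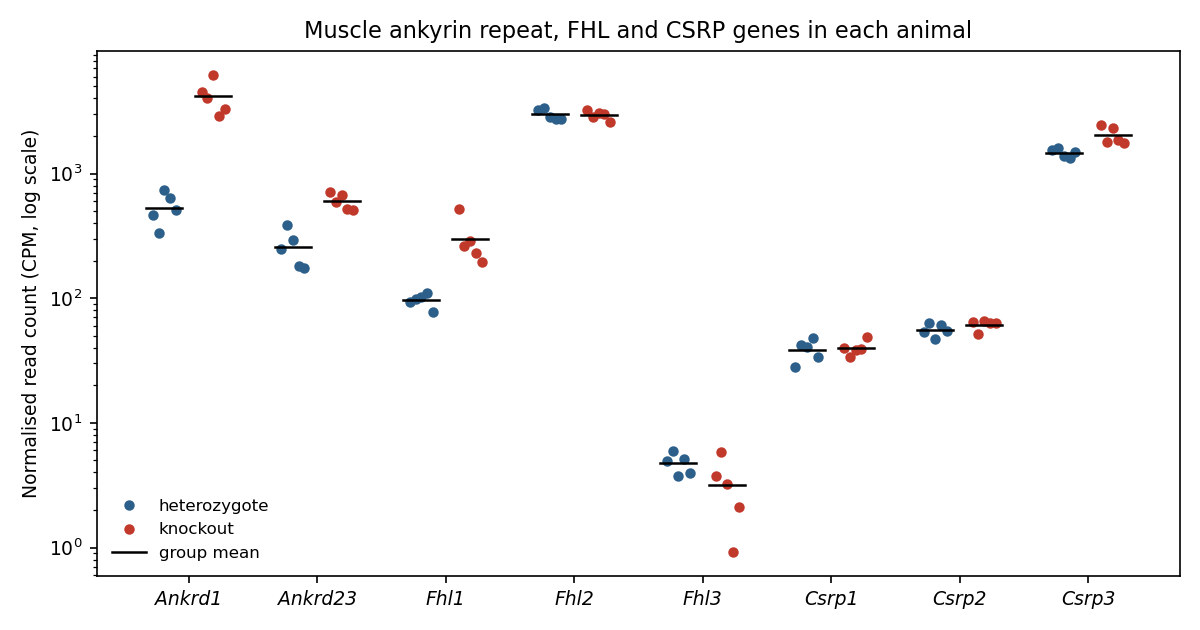
Normalised read count (CPM, log axis) of the 8 tested members in each of the 5 heterozygotes (blue) and 5 knockouts (red), with the group mean as a bar. The groups are apart for Ankrd1, Ankrd23, Fhl1 and Csrp3, and overlap for Fhl2, Fhl3, Csrp1 and Csrp2.

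Ankrd1, the cardiac ankyrin repeat protein (mm10 chromosome 19, 36111965 to 36119844, minus strand, 9 exons), moved most. It stood at 463, 331, 732, 633 and 510 CPM in heterozygotes 1 to 5 and at 4487, 4064, 6215, 2891 and 3280 CPM in knockouts 1 to 5. The lowest knockout, knockout 4, was 5.42 times the heterozygote mean and the highest, knockout 3, was 11.6 times that mean. edgeR gave a log2 fold change of 2.97 (SE 0.233, adjusted p 1.35e-06), or 7.85-fold, and only 29 tested genes rose by more. The spread between animals was similar in both groups relative to the mean (SD of 29.0% of the mean in heterozygotes and 31.0% in knockouts, n = 5 each).

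Ankrd23, also called diabetes-related ankyrin repeat protein (chromosome 1, 36530534 to 36535729, minus strand, 9 exons), rose less. It was at 247, 389, 291, 181 and 174 CPM in heterozygotes 1 to 5 and at 706, 593, 677, 521 and 511 CPM in knockouts 1 to 5. The highest heterozygote, heterozygote 2, still lay below the lowest knockout, knockout 5. The rise was 1.23 on the log2 scale (SE 0.195, edgeR adjusted p 0.000588), or 2.35-fold.

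Ankrd2, the family member of slow skeletal muscle (chromosome 19, 42036038 to 42045110, plus strand, 9 exons), was near absent. It had 0 to 2 counts per library and 0 counts in 6 of the 10 libraries. Every library was under the floor of 3 counts, which corresponds to 0.126 to 0.384 CPM, so no fold change is given.

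Within the family, the share of Ankrd1 in the summed CPM per kilobase of heterozygotes 1 to 5 was 67.4%, 48.5%, 73.6%, 79.5% and 76.5%. For knockouts 1 to 5 it was 87.6%, 88.4%, 91.0%, 86.0% and 87.7%. The group means were 69.1% ± 12.4 and 88.1% ± 1.85 (SD, n = 5), with no overlap, and Ankrd23 held almost all of the remainder. Heterozygote 2 was the only library in which Ankrd23 exceeded Ankrd1 per kilobase. The family sum went from 433 ± 78.3 to 2680 ± 772 CPM per kilobase (SD, n = 5). No test was run on these shares, since the family was chosen with the result for Ankrd1 known.

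**Figure D2:**
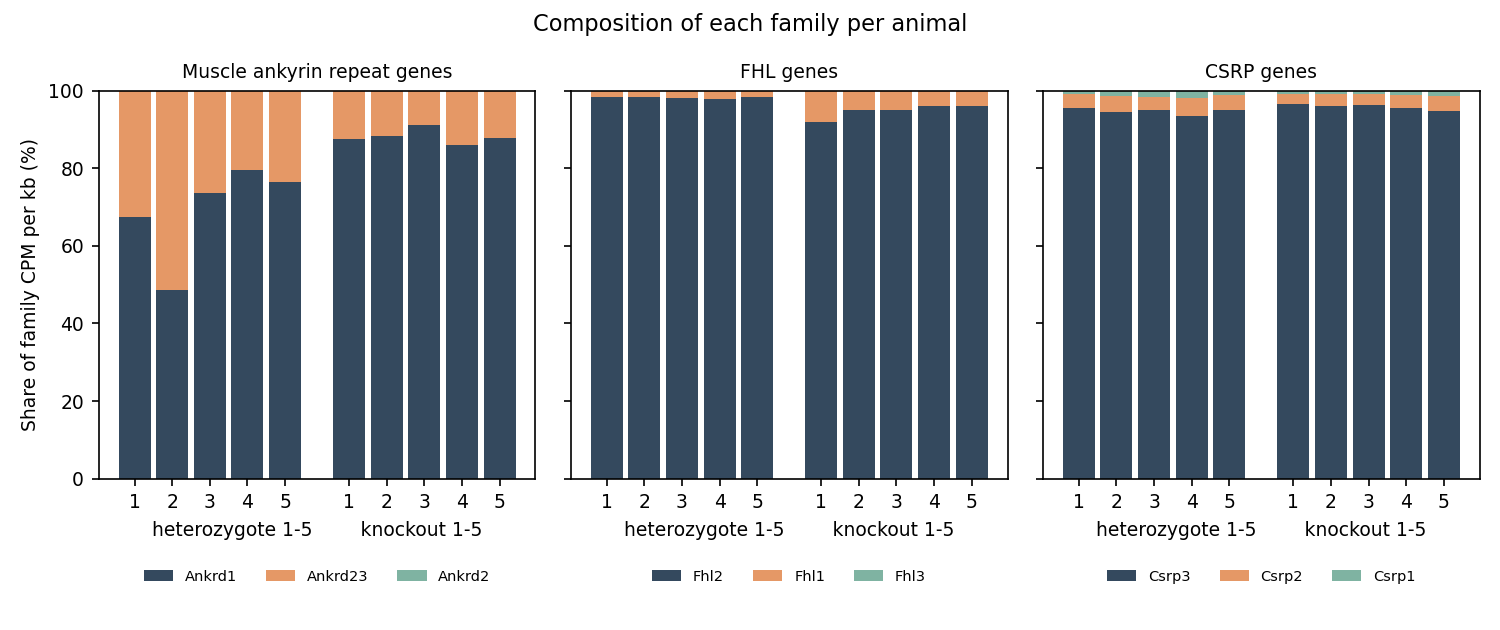
Share of each member in the summed CPM per kilobase of its family, in percent, for heterozygotes 1 to 5 and knockouts 1 to 5, with 1 stacked bar per animal. The Ankrd1 share is 48.5% to 79.5% in heterozygotes and 86.0% to 91.0% in knockouts, and the Fhl1 share is 1.497% to 2.118% and 3.95% to 8.02%.

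Of the FHL genes, Fhl1 rose while Fhl2 did not pass the test. Fhl1, which encodes a LIM protein of the sarcomere whose human gene is mutated in several myopathies, is X-linked (chromosome X, 56731787 to 56793346, plus strand, 10 merged exon intervals). It was at 92.9, 98.6, 102, 110 and 77.2 CPM in heterozygotes 1 to 5 and at 518, 264, 285, 232 and 195 CPM in knockouts 1 to 5. Knockout 1 was 5.38 times the heterozygote mean and the other 4 knockouts were 2.02 to 2.96 times that mean. On the log2 scale the rise was 1.64 (SE 0.218, edgeR adjusted p 0.000147), or 3.11-fold. Without knockout 1 it was 1.35 (SE 0.134, adjusted p 3e-05).

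The labels give no sex. The mean of 4 Y-linked genes was between 5.10 and 5.73 log2 CPM in 7 libraries and between -3.89 and -2.96 in heterozygotes 3 and 5 and knockout 5. Knockout 5 had the least Fhl1 of its group and heterozygote 5 the least of its own, while heterozygote 3 had the second highest of its group. With the Y-linked mean as a covariate, Fhl1 differed by 1.54 on the log2 scale (SE 0.209, edgeR adjusted p 0.000245).

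Fhl2, the most abundant member in the heterozygotes and a heart-enriched LIM protein (chromosome 1, 43123074 to 43163961, minus strand, 6 exons), stayed within a narrow range. It was at 3221, 3354, 2822, 2756 and 2759 CPM in heterozygotes 1 to 5 and at 3228, 2833, 3043, 3029 and 2568 CPM in knockouts 1 to 5, so the groups overlapped. The log2 fold change was -0.020 with a 95% interval of -0.21 to 0.17 (edgeR adjusted p 0.907), and its sign turned with library-total scaling (0.061) and without heterozygote 1, heterozygote 2 or knockout 5. The SD was 9.51% of the mean in heterozygotes and 8.53% in knockouts.

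Fhl3, a LIM protein best known from skeletal muscle (chromosome 4, 124700699 to 124708611, plus strand, 6 exons), was read 9 to 118 times per library. It was at 4.96, 5.89, 3.72, 5.11 and 3.94 CPM in heterozygotes 1 to 5 and at 3.75, 5.88, 3.22, 0.924 and 2.09 CPM in knockouts 1 to 5. Knockout 4 was lowest and knockout 2 reached the top of the heterozygote range. The log2 fold change was -0.57 with a 95% interval of -1.32 to 0.19 (edgeR adjusted p 0.290), which includes 0, and the SD was 58.7% of the mean in knockouts and 19% in heterozygotes.

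Fhl2 remained the bulk of its family in every library. Fhl1 gave 1.73% ± 0.277 of the summed CPM per kilobase of the FHL genes in heterozygotes and 5.13% ± 1.67 in knockouts (SD, n = 5), with no overlap. The sum of the family was 1944 ± 182 and 1987 ± 197 CPM per kilobase (SD, n = 5), a difference within the spread between animals. Without knockout 1 the knockout share of Fhl1 was 4.40%.

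Among the CSRP genes, Csrp3 rose modestly. Csrp3 (chromosome 7, 48830398 to 48848051, minus strand, 7 merged exon intervals) was at 1537, 1610, 1372, 1336 and 1493 CPM in heterozygotes 1 to 5 and at 2457, 1780, 2322, 1864 and 1742 CPM in knockouts 1 to 5. Knockouts 1 and 3 were 1.67 and 1.58 times the heterozygote mean, and the other 3 were 1.19 to 1.27 times it. Its log2 change of 0.47 (SE 0.110) had an edgeR adjusted p of 0.00835, or 1.38-fold. With the mean of the endothelial markers as a covariate it was 0.38 (SE 0.153, edgeR adjusted p 0.164) and no longer called. Ankrd1 (3.12), Fhl1 (1.78) and Ankrd23 (1.09) were still called in that fit. The covariate itself differed between the groups, at 5.67 to 6.36 log2 CPM in heterozygotes and 4.97 to 5.81 in knockouts. It thus goes partly with genotype and widens the SEs, so a call lost with it cannot be assigned to endothelial content, here or below.

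Csrp1 (chromosome 1, 135729197 to 135752229, plus strand, 6 exons) and Csrp2 (chromosome 10, 110920176 to 110939514, plus strand, 6 exons) overlapped between the groups. Csrp1 was at 28.3, 42.2, 40.9, 48.3 and 34.0 CPM in heterozygotes 1 to 5 and at 39.7, 33.8, 38.7, 39.1 and 48.7 CPM in knockouts 1 to 5. Its log2 fold change was 0.054 with a 95% interval of -0.25 to 0.36 (edgeR adjusted p 0.836), and was below 0 without heterozygote 1 (-0.045) and without knockout 5 (-0.028). Csrp2 was at 53.2, 62.9, 47.0, 61.4 and 55.0 CPM in heterozygotes 1 to 5 and at 63.8, 51.9, 65.3, 62.7 and 63.2 CPM in knockouts 1 to 5. For Csrp2 the log2 fold change was 0.13 with a 95% interval of -0.084 to 0.35 (edgeR adjusted p 0.396). Mural cells of vessels express both genes, and their markers were read in every library (summed level above). With the mean of the mural markers as a covariate, Csrp1 differed by 0.043 (edgeR adjusted p 0.879) and Csrp2 by 0.097 (adjusted p 0.553).

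Csrp3 made up 94.7% ± 0.743 of the CPM per kilobase of its family in heterozygotes and 95.7% ± 0.650 in knockouts (SD, n = 5), ranges that overlapped. Csrp2 gave 3.95% ± 0.460 and 3.21% ± 0.418, and Csrp1 gave 1.39% ± 0.341 and 1.06% ± 0.242. The family sum went from 1595 ± 118 to 2181 ± 344 CPM per kilobase.

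**Figure D3:**
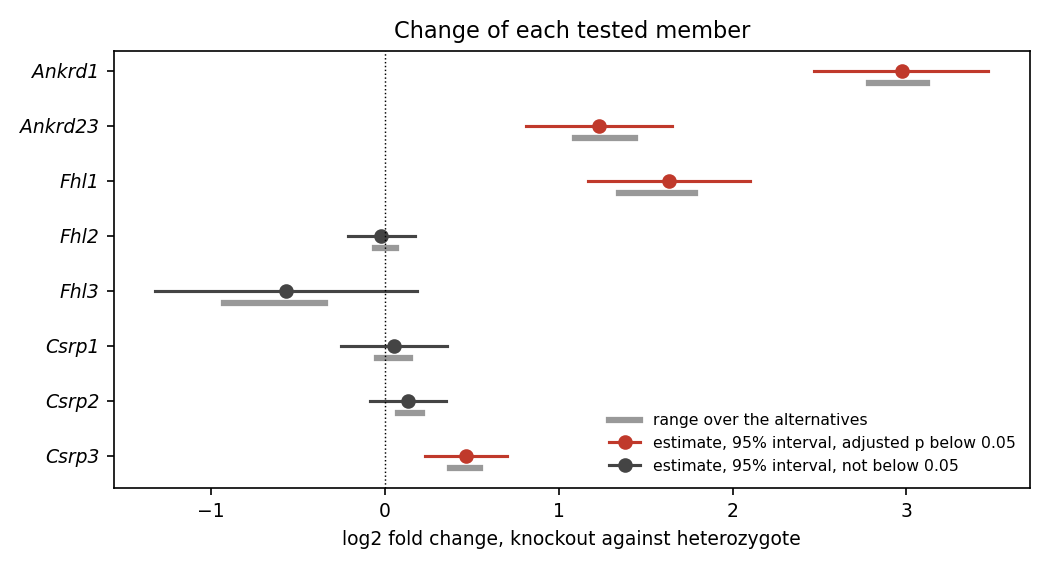
Log2 fold change of knockout against heterozygote for the 8 tested members (points) with 95% intervals from the edgeR fit, and as grey bars the range of the estimate over those of 10 other settings and 10 fits without 1 animal in which the gene was tested. Ankrd1, Ankrd23, Fhl1 and Csrp3 have intervals above 0, and the intervals of the other 4 include 0.

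Read per kilobase, the members covered a wide range of levels, and the order changed between the groups. In the heterozygotes the order of the means was Fhl2 (1908), Csrp3 (1511), Ankrd1 (302), Ankrd23 (131), Csrp2 (62.9), Fhl1 (33.5), Csrp1 (21.9) and Fhl3 (2.80 CPM per kilobase), with Ankrd2 last. The values of Ankrd1 and Ankrd23 overlapped there, as did those of Fhl1 and Csrp1, and the other neighbours were apart. Within the same library, Ankrd1 exceeded Ankrd23 in 4 of 5 heterozygotes and Fhl1 exceeded Csrp1 in 5 of 5. In the knockouts the order was Ankrd1 (2372), Csrp3 (2089), Fhl2 (1881), Ankrd23 (308), Fhl1 (104), Csrp2 (69.0), Csrp1 (22.6) and Fhl3 (1.88 CPM per kilobase). The 3 leading genes overlapped in their values in the knockouts, so that their order is not set apart from the spread between animals, and so did Fhl1 and Csrp2. Within the same library, Ankrd1 exceeded Csrp3, Csrp3 exceeded Fhl2 and Fhl1 exceeded Csrp2 in 4 of 5 knockouts each. Among all 11870 tested genes ranked by mean CPM per kilobase, Ankrd1 stood at place 219 in the heterozygotes and place 18 in the knockouts. Csrp3 went from place 50 to 22, Fhl1 from 2110 to 634, Ankrd23 from 519 to 200, and Fhl2 was at 38 and 28.

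The knockouts were not ordered alike for every member. Knockout 1 had the most Ankrd23, Fhl1, Fhl2 and Csrp3, whereas Ankrd1 was highest in knockout 3. Knockout 5, the library with the highest sum of atrial markers, had the least Ankrd23, Fhl1, Fhl2 and Csrp3 and the most Csrp1. Knockout 4 had the least Ankrd1 and Fhl3.

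For the leading member of each family in the heterozygotes, the genes whose deviations from the group means were most like it over the 10 libraries were looked up among the 8368 genes that averaged 10 CPM or more. These are the highest of many correlations in libraries that share depth and scaling, and are given as a description. For Ankrd1 they were Elf4 (Pearson r 0.908, Spearman rho 0.927), Pde7a (0.903 and 0.939) and Scaper (0.896 and 0.855). For Fhl2 they were AI480653 (0.979 and 0.964), Maea (0.970 and 0.976) and Ndufa10 (0.956 and 0.903), and for Csrp3 they were Mrpl43 (0.951 and 0.939), Cisd1 (0.941 and 0.879) and Arl6ip5 (0.926 and 0.891).

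Genes known to rise in stretched or overloaded heart muscle formed the list with the largest share of calls. Of 32 listed, 29 were tested, and 14 were higher and 1 lower in the knockout, which is 51.7% called against 18.9% of all tested genes. Like the other lists, this one was chosen with earlier results of these data known, so its share is a description and not a test. The median log2 fold change was 0.64. The largest rises were those of Nppa, which encodes atrial natriuretic peptide (3.99, edgeR adjusted p 7.11e-06), Myh7, which encodes the slow, beta-type myosin heavy chain (3.85, adjusted p 0.000480), and Tgfb2, a transforming growth factor beta ligand. Tgfb2 ran from 11.1 to 16.7 CPM in heterozygotes and from 71.0 to 125 CPM in knockouts (log2 fold change 2.87, SE 0.177, edgeR adjusted p 2.62e-07). The fall was that of Junb, an immediate-early transcription factor (-0.81, adjusted p 0.0459), and it did not pass in 8 of 10 refits on 9 animals, all but those without heterozygote 4 or heterozygote 5 (adjusted p 0.0567 to 0.117). With the endothelial covariate 8 genes of the list were called higher, in a fit that called 943 of 11870 tested genes, 479 of them higher and 464 lower.

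Binding partners and neighbours of the members in titin, Z-disc and signalling complexes changed in both directions. Of 35 listed, 34 were tested, with 10 called higher and 4 lower (41.2%) and a median log2 fold change of 0.069. Nrap, a LIM and nebulin-repeat protein of the intercalated disc, rose from 389 to 506 CPM in the range of the heterozygotes to 807 to 1050 CPM in that of the knockouts (log2 fold change 1.03, SE 0.103, edgeR adjusted p 1.24e-05). The calcineurin-responsive factor Nfatc2 (0.59, adjusted p 0.0149) and Tcap, the telethonin gene whose product binds Csrp3 (0.57, adjusted p 0.0259), were also higher. The call of Tcap was lost without heterozygote 3, heterozygote 5 or knockout 3 (adjusted p 0.0530 to 0.0683). Trim54, a muscle ubiquitin ligase (-0.83, edgeR adjusted p 0.00569), and Ybx1, a nucleic-acid-binding protein that interacts with Ankrd1 (-0.48, adjusted p 0.00233), fell. Without heterozygote 1, knockout 3, knockout 4 or knockout 5 the number of lower genes was 2. With the endothelial covariate 2 genes were called higher and 2 lower, against 479 and 464 of all 11870 tested genes. With that covariate Nfatc2 was at 0.53 (SE 0.220, edgeR adjusted p 0.170, SE 0.153 without it), and Tcap was at 0.34 (SE 0.207, adjusted p 0.374). Titin itself, Ttn, was at 2170 to 4190 CPM in heterozygotes and 1820 to 4210 CPM in knockouts (-0.072, edgeR adjusted p 0.854).

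LIM-domain genes other than the members were called more often upward than downward. Of 53 genes in the table, 45 were tested, of which 15 were higher and 4 lower (42.2%), with a median log2 fold change of 0.21. Pdlim3 (1.75, edgeR adjusted p 7.99e-06) and Pdlim7 (1.37, adjusted p 2.92e-05), PDZ and LIM proteins of the Z-disc and actin filaments, had the largest rises among genes that averaged 10 CPM or more. Zyx, the gene of zyxin, a LIM protein that gathers on strained actin filaments, ran from 70.0 to 123 CPM in heterozygotes and from 181 to 246 CPM in knockouts (1.11, SE 0.152, edgeR adjusted p 0.000176). Pdlim4 (-1.13, adjusted p 0.00460) and Lims2, which encodes a partner of integrin-linked kinase (-0.59, adjusted p 0.0295), fell. The Lims2 call was lost without heterozygote 3, heterozygote 4, knockout 2, knockout 3 or knockout 5 (adjusted p 0.0565 to 0.0744). With the endothelial covariate, 6 genes of the list were called higher, against 479 of all 11870 tested genes, and Lims2 did not pass (-0.27, edgeR adjusted p 0.540). This list and the partners share Ldb3 and Nrap. The partners and the load-responsive genes share Smpx, which was called higher (0.54, edgeR adjusted p 0.00616) and so counts in both.

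Genes that carry the Ankrd name but are not of the muscle family had a share of calls near the background. Of 42, 29 were tested, with 4 higher and 2 lower (20.7%, against 18.9% of all tested genes), and the median log2 fold change was -0.038. Ankrd45 ran from 2.82 to 4.12 CPM in heterozygotes and from 16.4 to 23.9 CPM in knockouts (log2 fold change 2.45, SE 0.170, edgeR adjusted p 5.27e-07). Ankrd10 (0.66, adjusted p 0.000172) and Ankrd28 (0.52, adjusted p 0.0171) had the next largest rises. Ankrd32 (-0.54, adjusted p 0.0363) and Ankrd9 (-0.46, adjusted p 0.0169) were lower. Ankrd32 did not pass in 7 of 10 refits on 9 animals (adjusted p 0.0693 to 0.0949), all but those without heterozygote 2, heterozygote 3 or knockout 2, and Ankrd9 did not pass in 1, without knockout 3 (adjusted p 0.0504). Without knockout 3, then, 0 genes of this list were called lower. With the endothelial covariate 2 were called higher and 0 lower, against 479 and 464 of all 11870 tested genes. The estimates of those named genes that no longer passed with it were 0.58 for Ankrd28 (edgeR adjusted p 0.0768), -0.51 for Ankrd32 (0.225) and -0.45 for Ankrd9 (0.134), with larger SEs.

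The last list held transcription regulators known to act on muscle genes of this kind. Of 24 listed, 22 were tested, and 2 were higher and 0 lower (9.09%, against 18.9% of all tested genes). Myocd, the gene of the SRF cofactor myocardin, ran from 119 to 177 CPM in heterozygotes and from 193 to 372 CPM in knockouts (log2 fold change 0.77, SE 0.174, edgeR adjusted p 0.00644). Mkl2, the gene of another SRF cofactor, was higher by 0.37 (adjusted p 0.0162). With the endothelial covariate neither passed, at 0.63 for Myocd (SE 0.243, edgeR adjusted p 0.140) and 0.40 for Mkl2 (SE 0.140, adjusted p 0.101), where the SE had been 0.174 and 0.0981. The list had 4 genes called higher without heterozygote 3, with library totals alone and with DESeq2. Among the genes of factors whose motifs were searched in the promoters, those that did not pass included Srf (-0.27, edgeR adjusted p 0.117), Gata4 (0.28, 0.0559), Nkx2-5 (-0.022, 0.935), Tead1 (-0.053, 0.802), Mef2a (0.25, 0.168), Mef2c (0.17, 0.352) and Mef2d (-0.044, 0.763). The coactivator genes Yap1 (0.18, 0.286) and Wwtr1 (-0.028, 0.882) did not pass either.

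**Figure D4:**
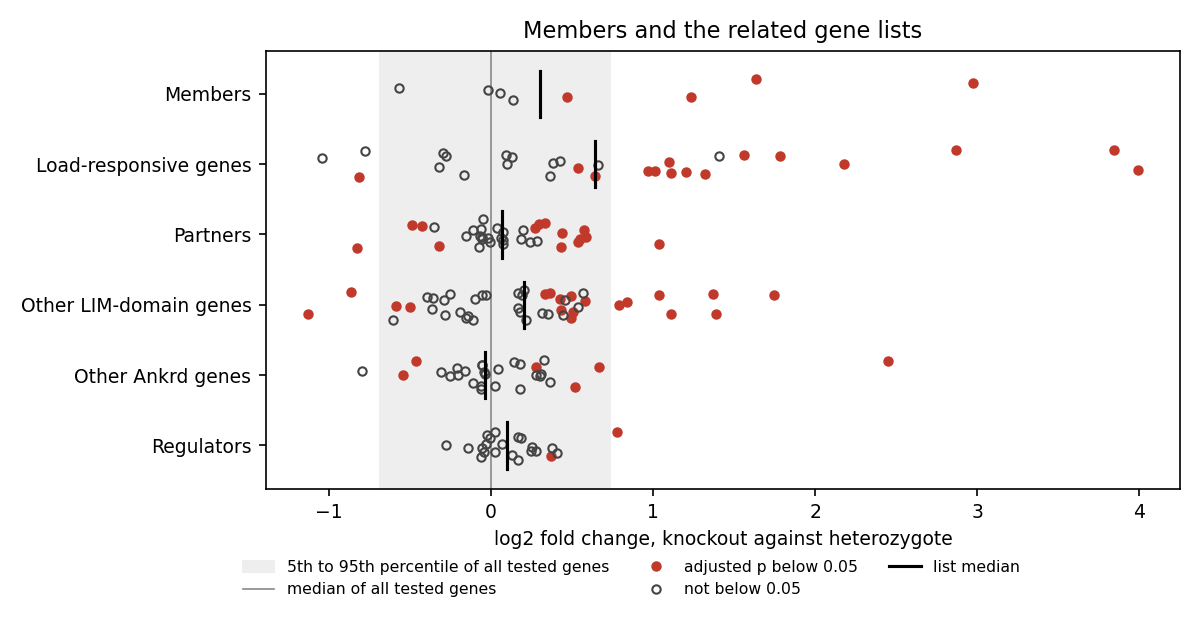
Log2 fold change of each tested gene (points) in the members and in the 5 related lists, with filled points for an edgeR adjusted p below 0.05, a bar at the list median, and the grey band from the 5th to the 95th percentile of all tested genes. The list of load-responsive genes has the highest median, 0.64, and the regulators have 2 filled points.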

How the data were processed

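Poly(A) RNA of sorted cardiomyocytes from 10 mice was read as SMART-Seq and Nextera XT libraries, made from 10 ng of RNA with 8 PCR cycles, per the labels' protocols. The deposited values are whole-number read counts per gene, not normalised, which the authors made with featureCounts 1.5.1 on 4 threads with no other option and a UCSC mm10 annotation, per the file headers. Without options that program ignores strand and drops reads that map to several places or genes. The submitters' processing notes name STAR 2.5.3a and Subread 1.5.2, but the header's alignment files carry another aligner's default name, so the aligner is uncertain. The table also holds 4 columns that match no sample, and these were not used. Gene lengths are the deposited exon lengths.

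Genes were filtered with filterByExpr (minimum count 10, minimum total 15), scaled by TMM and tested by quasi-likelihood in edgeR 4.0.16 under R 4.3.3, on all 10 libraries and without covariates, with Benjamini-Hochberg adjustment over 11870 genes and a threshold of 0.05. The procedure was also run on simulated data. Fewer genes changed there than were called here, and none by as little as Csrp3, so that run does not gauge these calls. SE is the absolute log2 fold change divided by the square root of F, and 95% intervals use the moderated degrees of freedom. Log2 CPM used a prior count of 1. Counting floors (3 counts) cover counting error only. Over 20 replicate pairs, chi-square per degree of freedom was 10.8 to 37.5, so replicates differed by more than sampling noise. Alternatives were other scalings, filters and covariates, a replicate block, DESeq2 1.42.0 and leaving out each animal.

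The members, lists and rules were chosen with earlier results of these data known. The genes named from each list are the called ones that averaged 10 CPM or more and had the 3 largest rises or the 3 largest falls (some are not reported here), and the likeness rule is given in the text. Ttn and the factor genes without a call were named outside that rule, after their values were seen.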

Additional observations from a re-analysis of the deposited data

Results flagged for a closer look

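In 72 groups of 5 values, 4 held an animal whose gap to the nearest other exceeded 0.71 of the range of its group, where about 3.6 would by chance. Knockout 2 had 5.701 log2 CPM of Csrp2, while the nearest other knockout had 5.97 (gap 0.825 of the range). The Fhl1 share of the FHL genes was 8.02% in knockout 1 against 4.84% in the next highest knockout (gap 0.781). The same knockout 1 had 10.73 log2 CPM of Myh7, and the nearest other knockout had 12.52 (gap 0.743). The total count of heterozygote 1 was 25237696, against 10309615 in the next deepest heterozygote (gap 0.870). Without that library the log2 fold changes of Ankrd1, Ankrd23, Fhl1 and Csrp3 kept their calls.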

How the results depend on the processing

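Of 179 combinations of a setting with Actn2 or a tested member, 172 gave the same direction and call, 1 lost its call and 6 changed sign. The lost call was that of Csrp3 with the endothelial covariate (0.38, adjusted p 0.164, range over all settings 0.00118 to 0.164), which left 3 members called higher and 943 genes called in all. This covariate itself differed between the groups. The other settings called 2081 to 2625 genes, and leaving out 1 animal 1699 to 2258, with 4 members called higher each time. The sign changes were those of Fhl2 with library totals (0.061) and of Fhl2 (-0.055 to 0.028) and Csrp1 (-0.045 to 0.15) when single animals were left out. When animals were left out, Ankrd1 lay at 2.79 to 3.11, Ankrd23 at 1.12 to 1.44, Fhl1 at 1.35 to 1.76 and Csrp3 at 0.39 to 0.52. Plain counts in place of counts per kilobase gave family shares of 3.14% (heterozygote) and 9.01% (knockout) for Fhl1 and 93.9% for Csrp3 in heterozygotes, as follows from the gene lengths. With the replicate number as a block, 2182 genes were called and Ankrd1 (2.97), Ankrd23 (1.29), Fhl1 (1.56) and Csrp3 (0.46) kept their calls. Their SEs with the block were 0.179, 0.139, 0.171 and 0.111, against 0.233, 0.195, 0.218 and 0.110 without it. Same-numbered libraries correlated at -0.0604 to 0.185 in their deviations from the group means, and 3 of 5 pairs exceeded 0.1. Heterozygotes 4 and 5 were most like the knockout of their own number, and heterozygotes 1, 2 and 3 were not. So few pairs cannot decide whether the numbers pair the animals. Of 460 combinations for the genes picked from the lists 48 lost the call, among them Junb, Lims2 and Ankrd32 with library totals alone (adjusted p 0.0610 to 0.0782), Junb also with DESeq2 and with the mural and Y-linked covariates, and Ankrd32 with the block. Depth limits Ankrd2, which had at most 2 counts in a library. Fhl3 was not tested at a mean of at least 5 CPM.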
